A study of Mus musculus with 9 samples.

Results

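The long noncoding RNAs Malat1, Neat1, Meg3, Rian, Mirg, H19, Gas5, Snhg1 and Snhg12, were examined in mouse gastrocnemius, a fast muscle of the calf. They were chosen by name as RNAs that are retained in the nucleus, expressed from one parental allele, or cut up to release small nucleolar RNAs, and the rule itself uses no expression value. Of these 9 members of the 23238 gene symbols counted, 8 had a row and all 8 passed the filter on low counts; Mirg had no row under that symbol and its level was not analysed here. Counts are 3′ tags, 1 per transcript end, so levels are compared between libraries for the same gene; ratios of tags of 2 genes are given only to compare the ratio between libraries.

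The muscles came from female C57BL/6 mice, given as 4 weeks of age, in 3 groups of 3 libraries. RP mice were injected on alternate days with 4 doses of 3 mg/kg cisplatin, a chemotherapy compound whose platinum crosslinks DNA, and were dosed by mouth with 100 mg/kg RP over 9 days; Paeonia lactiflora extract is the subject of the series title. Cisplatin mice had the same injections into the peritoneum with water by mouth, and Normal mice had saline injections and water, although their titles read untreated. No group received RP without cisplatin, so RP was measured only on top of the drug, and the time of collection was not given. The labels number 3 libraries in each group without naming the animal behind each, so p-values measure the spread between these libraries.

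Library totals were 9178613 to 9826089 counts in RP, 8352397 to 10678342 in Cisplatin and 8196030 to 8677236 in Normal. Markers of muscle fibres were present in all 9 libraries, at a sum of at least 79200 CPM in each. Fbxo32, the atrophy ubiquitin ligase atrogin-1, averaged 500.3 ± 188.8 CPM in RP, 10080 ± 1860 in Cisplatin and 382.7 ± 77.07 in Normal (SD, n = 3 each; CPM are counts scaled to a common library total, here with TMM factors).

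Long noncoding RNAs act as RNA and are not translated into proteins of their own. Malat1 and Neat1 stay in the nucleus, where Malat1 gathers at splicing speckles and Neat1 forms the core of paraspeckles. Meg3, Rian and Mirg lie in the imprinted Dlk1-Dio3 domain and are read from the maternal chromosome, as is H19 beside Igf2. Gas5, Snhg1 and Snhg12 carry small nucleolar RNAs (snoRNAs) in their introns; the snoRNAs guide chemical modification of ribosomal RNA, and the spliced host RNA is known as a substrate of nonsense-mediated decay and to start with a run of pyrimidines (a 5′ TOP) that ties its stability to translation.

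On GRCm38, with positions from GENCODE M21, Gas5 spans chr1:161034422-161038539 on the plus strand and holds 9 snoRNAs on its own strand. Snhg1 spans chr19:8723475-8726443 on the plus strand with 8 snoRNAs inside, and Snhg12 spans chr4:132308623-132311024 on the plus strand with 4. The promoters of these 3 host genes are shown because their RNAs rose together in Cisplatin muscle, and that of Meg3, which passed no test, was picked after the promoters were read because it too holds a TATA element and, like Gas5, TGACGTCA. Each line gives 250 bases before to 50 bases after a RefSeq transcription start on GRCm38.p6, plus strand, 5′ to 3′. Capitals mark a TATA element and, where present, the 8-base palindrome TGACGTCA known as the cAMP response element. They also mark the longest run of C and T near the start that opens with C.
Gas5, chr1:161034916-161035215: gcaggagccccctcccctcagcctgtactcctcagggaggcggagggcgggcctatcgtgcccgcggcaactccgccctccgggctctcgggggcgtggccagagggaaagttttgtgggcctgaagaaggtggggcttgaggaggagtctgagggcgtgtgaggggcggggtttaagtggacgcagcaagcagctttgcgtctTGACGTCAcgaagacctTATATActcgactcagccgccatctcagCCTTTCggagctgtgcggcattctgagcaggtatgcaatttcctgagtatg
Snhg1, chr19:8723237-8723536: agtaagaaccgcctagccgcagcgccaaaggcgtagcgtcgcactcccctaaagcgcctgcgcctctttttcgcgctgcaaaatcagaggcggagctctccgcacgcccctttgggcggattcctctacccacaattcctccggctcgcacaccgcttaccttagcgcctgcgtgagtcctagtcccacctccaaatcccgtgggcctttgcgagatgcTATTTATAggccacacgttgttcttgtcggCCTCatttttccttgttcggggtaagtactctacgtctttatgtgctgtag
Snhg12, chr4:132308428-132308727: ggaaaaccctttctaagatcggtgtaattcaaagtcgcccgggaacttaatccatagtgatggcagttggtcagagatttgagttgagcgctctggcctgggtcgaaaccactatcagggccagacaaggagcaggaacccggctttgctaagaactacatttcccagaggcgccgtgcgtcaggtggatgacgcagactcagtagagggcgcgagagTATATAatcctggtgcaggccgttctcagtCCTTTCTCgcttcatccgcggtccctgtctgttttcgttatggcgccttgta
Meg3, chr12:109540746-109541045: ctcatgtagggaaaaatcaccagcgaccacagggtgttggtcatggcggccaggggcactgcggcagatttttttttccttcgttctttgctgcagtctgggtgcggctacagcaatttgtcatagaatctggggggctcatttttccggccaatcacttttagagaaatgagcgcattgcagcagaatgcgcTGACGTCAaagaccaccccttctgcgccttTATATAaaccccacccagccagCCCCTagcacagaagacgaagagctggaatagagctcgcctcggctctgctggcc

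The windows of Gas5, Snhg1 and Snhg12 hold TATA letters, as does the Meg3 window picked for them. These were searched for as TATATA or as TATAAA or as the longer TATTTATA on the transcript strand 15 to 45 bases before the start. Such letters occur in 3.17% of 32851 RefSeq promoter windows, counted without the windows of a chromosome that holds no member. The element begins 29 bases before the start in Gas5, 31 in Snhg1, 32 in Snhg12 and 27 in Meg3. The set of TATA letters was chosen after these promoters had been read, and a match describes letters only. TGACGTCA, searched on both strands, occurs in the Gas5 and Meg3 windows and in 1.79% of all windows. Both elements occur together in 12 of 32851 windows (0.0365%). That share is a description only, since the TATA letters were chosen, and Meg3 picked, after these promoters were read. A p53 half-site, also searched for on both strands, occurs in 0 of the 9 member windows and in 8.36% of all windows. The pyrimidine run beginning with C is 6 bases long in Gas5, 4 in Snhg1 and 8 in Snhg12. Runs of at least 4, 6 and 8 bases near the start occur in 58.9, 24.6 and 10.3% of all windows, so the Snhg12 run is the least common of the 3; near means a start from 10 bases before to 20 after the transcription start. RefSeq gave 9 windows for 7 of the 9 members. The other 5, those of Malat1, Rian and Mirg and a second start each of Gas5 (chr1:161034351-161034650) and Meg3 (chr12:109545148-109545447), hold neither TATA letters nor TGACGTCA in the places searched.

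Cisplatin muscle differed from Normal muscle in 7 of the 8 measured members, where 54.5% of all 12859 genes tested were called (26.3% higher, 28.2% lower) and 62.2% had groups that did not overlap. Gas5, Snhg1, Snhg12 and Malat1 rose, Neat1, Rian and H19 fell, and Meg3 was not called (edgeR quasi-likelihood test, Benjamini-Hochberg adjusted p under 0.05 over all genes). The median log2 fold change of the 8 members was 0.17, against -0.08 over all genes, and 6 members had groups that did not overlap. In RP against Cisplatin, where 48.8% of genes were called (24.6% higher, 24.2% lower) and 56.8% did not overlap, Neat1 and Rian rose and Gas5, Snhg1, Snhg12 and Malat1 fell. The member median there was -0.50, against 0.07 over all genes, and 6 of 8 did not overlap, or 7 with library size as the only scaling. In RP against Normal 0 of the 8 were called, in a comparison that called 0.505% of genes (0.187% higher, 0.319% lower). Both of the first comparisons use the Cisplatin libraries, so opposite signs in them are not separate observations.

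**Figure D1:**
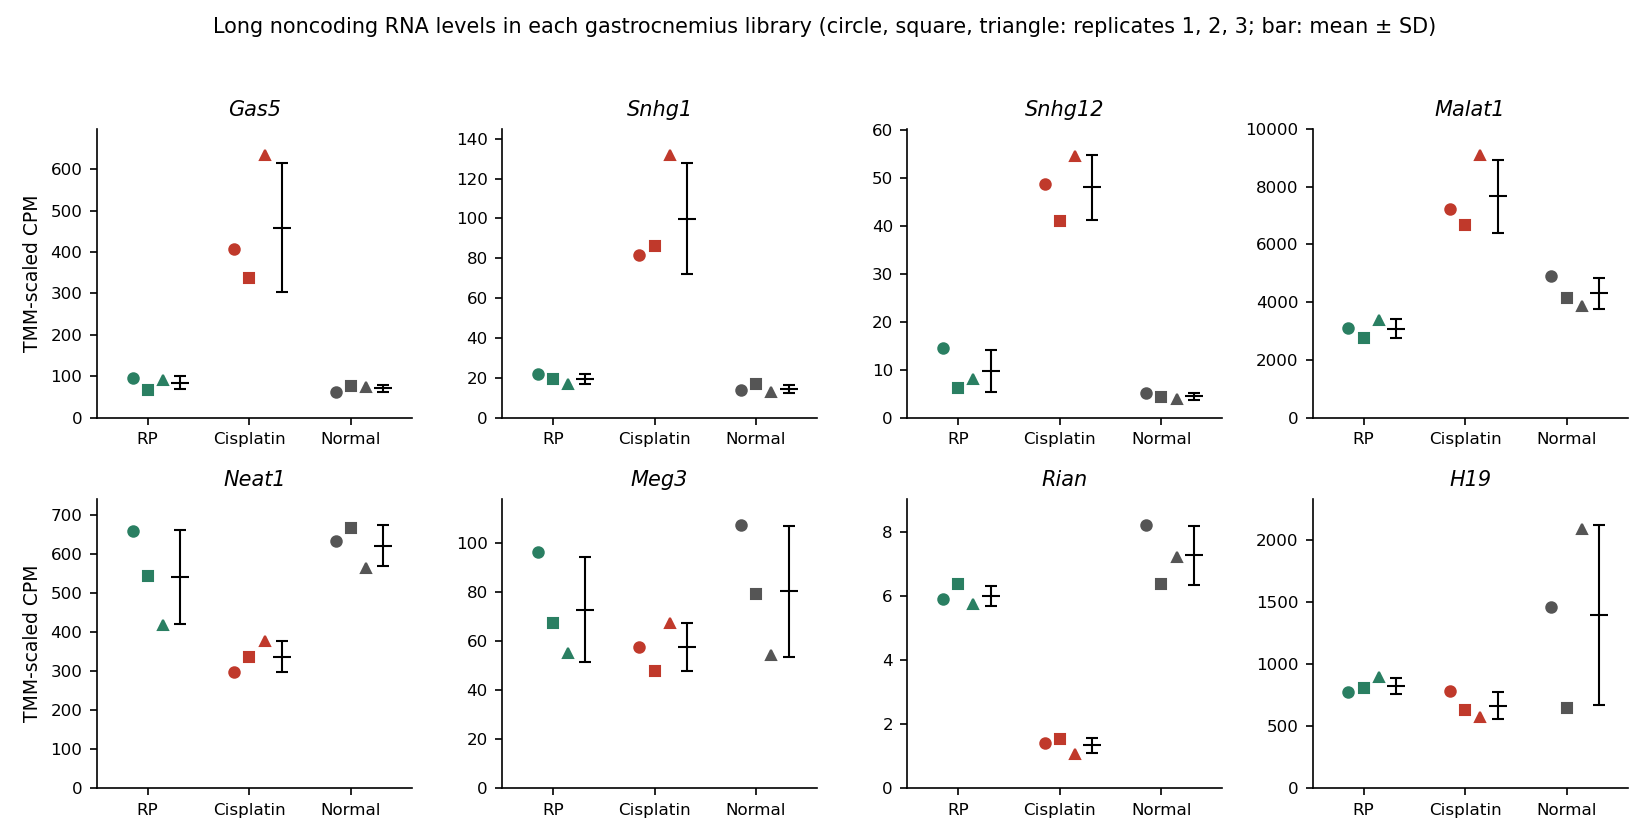
TMM-scaled CPM of the 8 measured members, 1 panel each with its own linear axis from 0, in 9 libraries grouped as RP, Cisplatin and Normal; circles, squares and triangles are replicates 1, 2 and 3, and bars are the group mean ± SD. The 3 host genes and Malat1 stand highest in the Cisplatin libraries, Neat1 and Rian stand lowest there, and the Meg3 and H19 groups overlap.

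**Figure D2:**
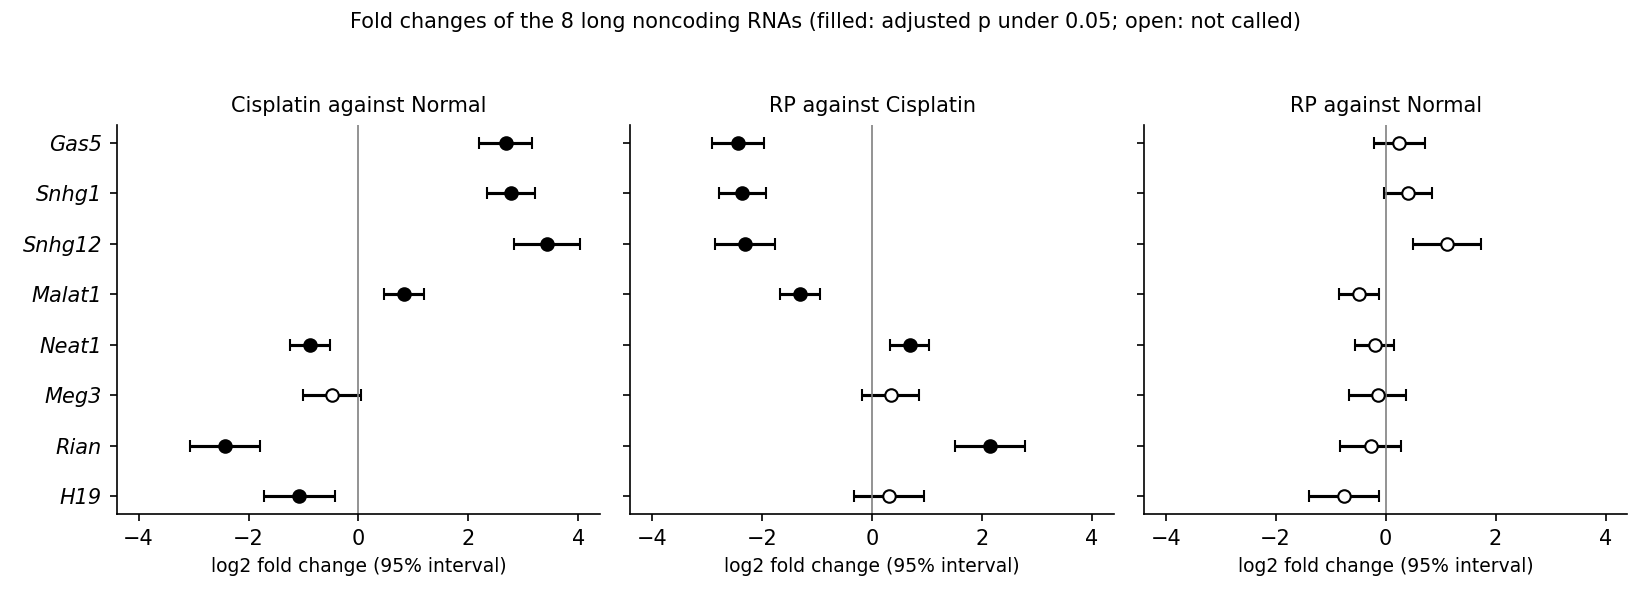
Log2 fold change with its 95% confidence interval for each member in the 3 comparisons; filled points were called at an adjusted p under 0.05 and open points were not. All RP against Normal points are open.

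The snoRNA host genes showed the largest changes among the members. Gas5 (growth arrest specific 5, named for its accumulation in arrested cells) had 97.0, 66.8 and 90.5 CPM in the RP libraries, 406, 336 and 634 CPM in the Cisplatin libraries, and 61.96, 77.2 and 75.1 CPM in the Normal libraries. The lowest Cisplatin library stood above every other library, and the RP and Normal values overlapped. Gas5 was 6.42-fold higher in Cisplatin than in Normal (log2 2.68 ± 0.22 SE, adjusted p = 6.67e-07), and 99.0% of genes had a lower fold change. RP against Cisplatin gave -2.44 ± 0.22 (adjusted p = 2.23e-06), 5.41-fold lower in RP.

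Snhg1, host of the SNORD25 to SNORD31 group, had 21.8, 19.6 and 16.9 CPM in RP, 81.4, 86.3 and 132 in Cisplatin, and 14.0, 16.9 and 12.9 in Normal. The Cisplatin libraries again lay apart, and the lowest RP library was within the Normal range. Its log2 fold change was 2.77 ± 0.20 in Cisplatin against Normal (adjusted p = 2.31e-07) and -2.36 ± 0.20 in RP against Cisplatin (adjusted p = 1.12e-06).

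Snhg12, host of H/ACA and C/D snoRNAs, was the member with the largest rise, 10.8-fold. It had 14.6, 6.26 and 8.17 CPM in RP, 48.6, 41.0 and 54.5 in Cisplatin, and 5.19, 4.28 and 3.85 in Normal. Each RP library lay between the Normal and the Cisplatin libraries with no overlap on either side. The log2 fold change was 3.43 ± 0.28 in Cisplatin against Normal (adjusted p = 5.59e-07) and -2.31 ± 0.26 in RP against Cisplatin (adjusted p = 1.16e-05). In RP against Normal it was 1.12 ± 0.29 with a 95% interval of 0.50 to 1.73, and the adjusted p of 0.116 missed the threshold; without RP replicate 1 it was 0.70 (adjusted p = 0.452).

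The 3 host RNAs kept their proportions in part. Gas5 tags per Snhg1 tag were 3.42 to 5.37 in RP, 3.89 to 4.99 in Cisplatin and 4.42 to 5.83 in Normal, ranges that overlap. Snhg12 tags as a percentage of Snhg1 tags were 32.0 to 66.8% in RP, 41.3 to 59.7% in Cisplatin and 25.3 to 37.1% in Normal, so that the Cisplatin range lay above the Normal range. As a description over 9 libraries that fall into 3 groups, the log2 levels of Gas5 and Snhg1 correlated with Pearson r = 0.985, Gas5 and Snhg12 with 0.959, and Snhg1 and Snhg12 with 0.967.

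**Figure D3:**
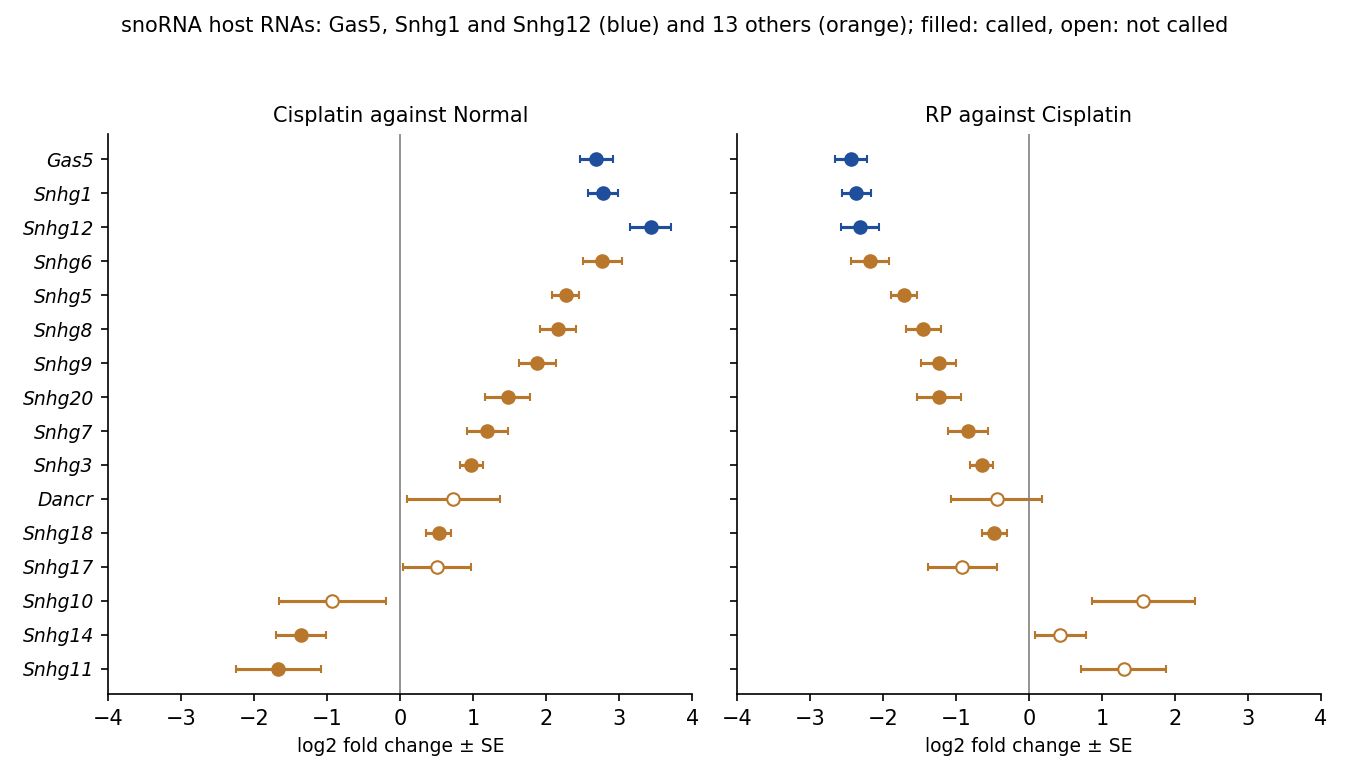
Log2 fold change ± SE of Gas5, Snhg1 and Snhg12 (blue) and 13 other snoRNA host genes (orange) in the first 2 comparisons; filled points were called and open points were not. Snhg12, Snhg1, Snhg6 and Gas5 lie farthest to the right in Cisplatin against Normal, and Snhg11 and Snhg14 lie to the left.

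Of 13 other snoRNA host genes tested, 8 rose and 2 fell in Cisplatin against Normal, with a median of 0.97 against -0.08 over all genes. In RP against Cisplatin 8 fell and 0 rose (median -0.84, against 0.07). Snhg6 averaged 49.5 ± 12.3 CPM in RP, 224 ± 61.2 in Cisplatin and 32.9 ± 11.01 in Normal (SD, n = 3 each), and its rise of 2.77 ± 0.27 was close to that of Snhg1. Snhg5 rose by 2.27 ± 0.19 and Snhg8 by 2.16 ± 0.25 (adjusted p = 6.41e-07 and 9.48e-06). Snhg11 (-1.67 ± 0.58, adjusted p = 0.026) and Snhg14 (-1.36 ± 0.34, adjusted p = 0.00427) fell. Both rest on few tags, Snhg11 with 62 counts over Normal and 21 over Cisplatin, and Snhg14 with 157 and 66. Neither was called in RP against Cisplatin. Snhg14, the imprinted host of the SNORD115 and SNORD116 arrays, and Snhg11 are best known from neurons; these 2 were named after their values were seen.

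The proteins that bind snoRNAs moved in the same direction as the hosts for the most part. Of 10 snoRNP protein genes, 9 rose and 1 fell in Cisplatin against Normal (median 1.12), and 1 rose and 8 fell in RP against Cisplatin (median -0.96). Nop58, a core C/D protein, averaged 52.0 ± 5.04 CPM in RP, 113 ± 9.66 in Cisplatin and 48.0 ± 4.91 in Normal. Nolc1, a nucleolar chaperone of snoRNPs, rose by 1.47 ± 0.17 (adjusted p = 8.52e-06), and Gar1, an H/ACA subunit, by 1.62 ± 0.20 (adjusted p = 2.02e-05). Dkc1, the H/ACA pseudouridine synthase and the exception in both, averaged 64.7 ± 12.2 CPM in RP, 47.4 ± 2.46 in Cisplatin and 66.7 ± 8.99 in Normal (-0.49 ± 0.16 in Cisplatin against Normal, adjusted p = 0.0157; 0.45 ± 0.16 in RP against Cisplatin, adjusted p = 0.028); it was named after its values were seen.

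Host RNAs are degraded by nonsense-mediated decay, and 7 of 10 genes for its factors rose and 0 fell in Cisplatin against Normal (median 0.69), while 7 fell and 0 rose in RP against Cisplatin (median -0.59). Smg1, the kinase that phosphorylates the helicase Upf1, averaged 32.1 ± 6.77 CPM in RP, 107 ± 14.4 in Cisplatin and 37.2 ± 8.20 in Normal. Smg5, a phosphatase adaptor of the same pathway, rose by 1.58 ± 0.26 (adjusted p = 0.000171). Of 14 mRNAs outside the ribosomal protein genes that also begin with a 5′ TOP, 11 rose and 0 fell in Cisplatin against Normal (median 0.65), and 10 fell and 0 rose in RP against Cisplatin (median -0.44). Btf3, a chaperone of nascent chains, rose by 1.27 ± 0.12 (adjusted p = 1.47e-06), and Npm1, the nucleolar protein nucleophosmin, by 1.42 ± 0.16 (adjusted p = 1.03e-05). In these 2 lists, and in those of the other hosts and the snoRNP proteins, 0 genes were called in RP against Normal.

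The snoRNAs themselves were barely captured by tags that start from a poly(A) tail. The 4 snoRNA rows inside Snhg12 summed to 26 counts over the 3 RP libraries, 36 over Cisplatin and 44 over Normal, whereas Snhg12 itself had 285 in RP, 1303 in Cisplatin and 112 in Normal. The single row inside Snhg1 had 84 counts in RP, 145 in Cisplatin and 75 in Normal, while Snhg1 had 575 in RP, 2710 in Cisplatin and 369 in Normal. The row inside Gas5 had 12 counts in RP, 15 in Cisplatin and 6 in Normal. Those sums do not follow their hosts in size, and the abundance of mature snoRNAs was not measured by them.

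Genes beside the hosts were measured as well. Trnau1ap, a selenocysteine tRNA-associated protein, lies on the opposite strand with its end 739 bp from that of Snhg12. It averaged 10.8 ± 3.56 CPM in RP, 33.0 ± 2.21 in Cisplatin and 8.10 ± 1.91 in Normal. It rose by 2.02 ± 0.24 in Cisplatin against Normal (adjusted p = 1.44e-05) and fell by 1.62 ± 0.24 in RP against Cisplatin (adjusted p = 9.86e-05). Slc3a2, an amino acid transporter heavy chain 106 bp from Snhg1 on the opposite strand, rose by 0.79 ± 0.13 (adjusted p = 0.000259), and Wdr74, a ribosome assembly factor on the other side of Snhg1, by 1.31 ± 0.19 (adjusted p = 6.82e-05). Of 12 neighbours of all members tested, 7 rose and 3 fell in Cisplatin against Normal, and 2 rose and 3 fell in RP against Cisplatin. Zbtb37 overlaps Gas5 on the other strand; the strand setting of the counting is not given in the sources used here, so reads of the pair cannot be told apart.

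The 2 nuclear RNAs are neighbours on chromosome 19, Malat1 at chr19:5795690-5802672 and Neat1 at chr19:5824708-5845478, both on the minus strand and 22036 bp apart, yet they moved in opposite directions. Malat1 had 3112, 2757 and 3391 CPM in RP, 7208, 6667 and 9098 in Cisplatin, and 4912, 4142 and 3884 in Normal. The 3 groups were fully apart, with RP lowest and Cisplatin highest. The log2 fold change was 0.83 ± 0.17 in Cisplatin against Normal (adjusted p = 0.000955), -1.31 ± 0.17 in RP against Cisplatin (adjusted p = 3.85e-05) and -0.48 ± 0.17 in RP against Normal (95% interval -0.84 to -0.12, adjusted p = 0.24, not called).

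Neat1 had 660, 544 and 418 CPM in RP, 297, 337 and 377 in Cisplatin, and 634, 667 and 563 in Normal. Cisplatin lay below both other groups, and RP and Normal overlapped. It fell by 0.88 ± 0.17 in Cisplatin against Normal (adjusted p = 0.000555) and rose by 0.68 ± 0.17 in RP against Cisplatin (adjusted p = 0.00401). Within each library, tags of Malat1 per tag of Neat1 were 4.71 to 8.11 in RP, 19.8 to 24.3 in Cisplatin and 6.21 to 7.75 in Normal, a ratio that needs no scaling between libraries. The Malat1 transcript ends without a poly(A) tail and holds a run of 12 A bases 298 bases before its annotated end. The source of its tags is thus not known, and its tag count need not follow the whole RNA. The longest annotated transcripts of Meg3, Rian and Snhg12 also hold runs, of 16, 15 and 12 A bases. Whether tags arose at such runs was not tested for any member.

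Genes for the proteins of both nuclear bodies changed in 1 direction for the most part, unlike the RNAs. Of 12 paraspeckle protein genes, 10 rose and 0 fell in Cisplatin against Normal (median 0.74). In RP against Cisplatin 9 fell and 0 rose (median -0.53). Both medians are opposite in sign to the change in the Neat1 tag count. Neat1 has 4 annotated transcripts, and the level of each, including the longest of 20771 bases, was not measured. Sfpq, which binds Neat1 and is needed for paraspeckles, averaged 68.1 ± 2.90 CPM in RP, 133 ± 9.14 in Cisplatin and 65.6 ± 1.79 in Normal. Tardbp, which encodes an RNA-binding protein, rose by 1.03 ± 0.15 (adjusted p = 6.82e-05). Of 12 nuclear speckle genes, 8 rose and 1 fell in Cisplatin against Normal (median 0.74), and 1 rose and 6 fell in RP against Cisplatin (median -0.44), the same sign as Malat1. Srrm2, a scaffold of speckles, averaged 277 ± 41.9 CPM in RP, 530 ± 93.4 in Cisplatin and 233 ± 3.21 in Normal. Srsf1, a splicing factor and the exception, fell by 0.39 ± 0.13 in Cisplatin against Normal (adjusted p = 0.0195) and was named after its values were seen.

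The estimated changes of the imprinted members differed in size, and only Rian was called in both of the first 2 comparisons. Meg3 (chr12:109541001-109571726), Rian (chr12:109603940-109661716) and Mirg (chr12:109729764-109749460) lie in a row on the plus strand, with gaps of 32214 and 68048 bp. Rian had 5.89, 6.36 and 5.75 CPM in RP, 1.41, 1.52 and 1.07 in Cisplatin, and 8.21, 6.36 and 7.22 in Normal. The Cisplatin libraries were far below the rest, while the highest RP library and the lowest Normal library were almost equal. Rian fell by 2.42 ± 0.30 in Cisplatin against Normal (5.37-fold, adjusted p = 1.71e-05) and rose by 2.15 ± 0.30 in RP against Cisplatin (4.44-fold, adjusted p = 6.46e-05). It rests on few tags, with 178 counts over the 3 RP libraries, 37 over Cisplatin and 183 over Normal.

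Meg3 had 96.3, 67.2 and 54.9 CPM in RP, 57.6, 47.7 and 67.2 in Cisplatin, and 107, 79.2 and 54.2 in Normal. All 3 groups overlapped. The log2 fold change in Cisplatin against Normal was -0.48 ± 0.24 (95% interval -1.003 to 0.04, adjusted p = 0.109), and in RP against Cisplatin 0.34 ± 0.24 (-0.18 to 0.86, adjusted p = 0.261). Both intervals include 0, so no direction is given for Meg3. Rian tags as a percentage of Meg3 tags were 6.12 to 10.5% in RP, 1.59 to 3.19% in Cisplatin and 7.66 to 13.3% in Normal, with Cisplatin apart from both. Dlk1, the paternally expressed gene of the domain, encodes a growth regulator of muscle and fat. It had 17.4, 20.3 and 17.3 CPM in RP, 3.88, 1.14 and 0.714 in Cisplatin, and 24.6, 36.8 and 7.58 in Normal, and it fell by 3.60 ± 0.56 in Cisplatin against Normal (adjusted p = 0.000123) and rose by 3.27 ± 0.56 in RP against Cisplatin (adjusted p = 0.000343). The snoRNA rows inside Rian summed to 5, 4 and 10 counts in RP, Cisplatin and Normal, too few to compare.

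**Figure D4:**
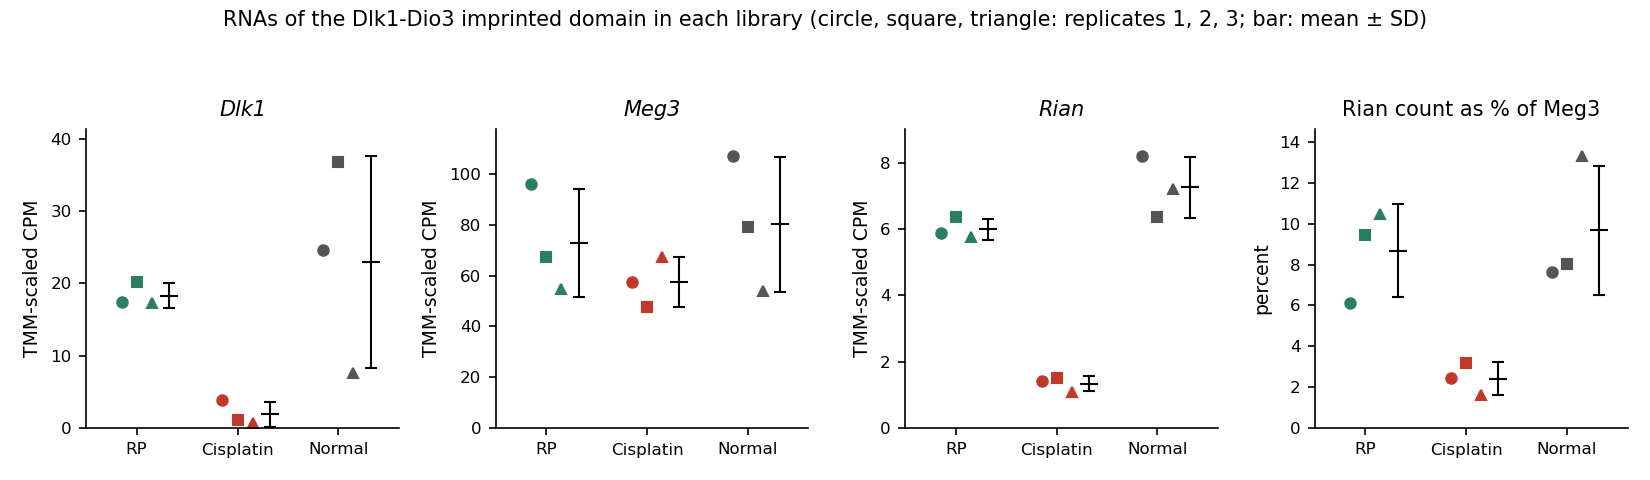
TMM-scaled CPM of Dlk1, Meg3 and Rian, and the Rian count as a percentage of the Meg3 count, in each library, grouped as RP, Cisplatin and Normal; circles, squares and triangles are replicates 1, 2 and 3, and bars are the group mean ± SD. All 3 Cisplatin libraries are below the other 6 for Dlk1, Rian and the percentage, and the Meg3 groups overlap.

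H19 (chr7:142575529-142578143, minus strand), a growth-restraining RNA and the precursor of the microRNA Mir675, had 769, 803 and 895 CPM in RP, 784, 630 and 571 in Cisplatin, and 1458, 641 and 2084 in Normal. The RP and Cisplatin groups overlapped (with library size as the only scaling they did not), and 2 of the 3 Normal libraries stood above all others while Normal replicate 2 lay inside the Cisplatin range. H19 fell by 1.08 ± 0.30 in Cisplatin against Normal (adjusted p = 0.0078), but without Normal replicate 3 the change was -0.65 and the adjusted p 0.0589. RP against Cisplatin gave 0.31 ± 0.30 (-0.32 to 0.95, adjusted p = 0.4). Igf2, its reciprocally imprinted neighbour 72623 bp away, averaged 28.4 ± 5.87 CPM in RP, 14.5 ± 2.24 in Cisplatin and 30.1 ± 2.31 in Normal; it fell by 1.05 ± 0.18 in Cisplatin against Normal and rose by 0.96 ± 0.18 in RP against Cisplatin (adjusted p = 0.000301 and 0.00072).

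Over 9 libraries, the 3 genes most like H19 were Atp2a2, Tpm3 and Myoz2 (Pearson r of log2 CPM 0.966, 0.945 and 0.945 among 9099 genes compared), which encode the slow calcium pump, slow tropomyosin and a slow-fibre Z-disc protein. Atp2a2 had 55.5, 84.6 and 96.6 CPM in RP, 83.4, 38.4 and 39.1 in Cisplatin, and 206, 72.3 and 345 in Normal. Normal replicates 1 and 3 were the highest libraries for both genes, a likeness for which Atp2a2 was picked on these same libraries, so it is a description only. Other slow-fibre genes were not read as a list.

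**Figure D5:**
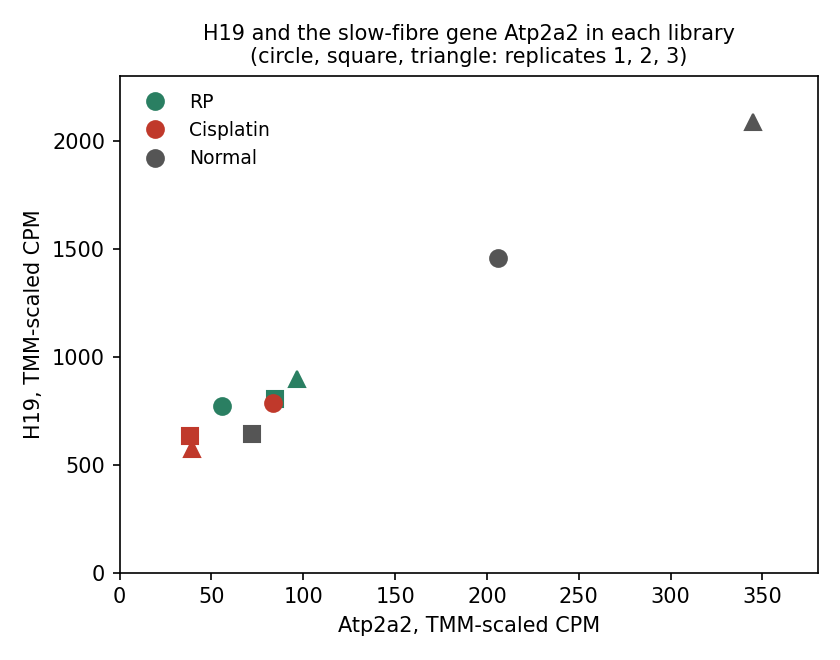
H19 against Atp2a2 in TMM-scaled CPM, linear axes, 1 point per library, coloured by RP, Cisplatin and Normal, with circles, squares and triangles for replicates 1, 2 and 3. Atp2a2 was picked for its likeness to H19 in these libraries; Normal replicates 1 and 3 lie at the upper right, and the other libraries lie together at lower levels of both.

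From a list of 23 protein-coding genes known for imprinting in some tissue, 20 were tested. Whether each is imprinted in muscle was not measured. In Cisplatin against Normal 3 rose and 11 fell (median -0.70), and in RP against Cisplatin 10 rose and 3 fell (median 0.85). Ndn, the Prader-Willi region gene necdin, averaged 17.1 ± 4.23 CPM in RP, 3.26 ± 1.01 in Cisplatin and 21.1 ± 4.33 in Normal. Cdkn1c, the cell cycle inhibitor p57, fell by 1.30 ± 0.16 (adjusted p = 1.85e-05), and Slc38a4, an amino acid transporter, rose by 1.17 ± 0.15 (adjusted p = 1.94e-05). Dcn, the collagen-binding proteoglycan decorin, itself abundant in fibroblasts, rose by 1.77 ± 0.28 in RP against Cisplatin (adjusted p = 0.000176).

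Markers of connective tissue moved in the direction of Rian, Dlk1 and the median of the imprinted gene list. All 9 fibroblast markers fell in Cisplatin against Normal and all 9 rose in RP against Cisplatin, with summed levels of 1755 to 3153 CPM in RP, 314 to 521 in Cisplatin and 3091 to 5595 in Normal. All 6 tendon markers tested fell and then rose in the same 2 comparisons, and the 7 listed summed to 55.0 to 84.4 CPM in RP, 5.99 to 12.4 in Cisplatin, where 1, Kera, was at 0, and 184 to 370 in Normal. Of 6 macrophage markers, 5 fell and 1 rose in Cisplatin against Normal, and their sums were 88.6 to 129 CPM in RP, 42.8 to 71.2 in Cisplatin and 168 to 197 in Normal. All 5 adipocyte and all 5 erythroid markers fell in Cisplatin against Normal. Adipocyte markers summed to 824 to 1094 CPM in RP, 45.6 to 214 in Cisplatin and 206 to 1472 in Normal, and erythroid markers to 64.9 to 410 CPM in RP, 34.0 to 60.4 in Cisplatin and 4158 to 8991 in Normal. Of 6 endothelial markers, 1 rose (Cldn5, 1.92) and 2 fell (Kdr, -1.09, and Tie1, -0.72) in Cisplatin against Normal, and their sums overlapped, at 175 to 240 CPM in RP, 162 to 227 in Cisplatin and 195 to 240 in Normal. Of 7 satellite cell markers, 2 rose and 2 fell in Cisplatin against Normal (median -0.63). Their sums were 882 to 1319 CPM in RP, 1368 to 1532 in Cisplatin and 836 to 941 in Normal. Most of each sum came from Des (1065 CPM in RP, 1428 in Cisplatin and 840 in Normal on average), which muscle fibres also express. Among the myogenic factors, Myf5 (-1.97) and Myod1 (-1.35) fell and Myog (0.84) rose in Cisplatin against Normal. Fibre markers summed lowest in Cisplatin, at 107100 to 121900 CPM in RP, 79200 to 98320 in Cisplatin and 99770 to 111600 in Normal. Of these 8 markers, 1 rose, 4 fell and 3 were not called in Cisplatin against Normal. In RP against Normal, all 5 erythroid, 2 tendon and 1 fibroblast marker fell. The part of these shifts in the lncRNA values was not tested, and in whole muscle fewer cells of a type and less RNA per cell cannot be told apart.

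RP against Normal compares muscle given cisplatin and RP with muscle given neither. By edgeR 0 of the 8 members were called, with 3 of 8 at an unadjusted p under 0.05 among 1649 of 12859 genes at that level. DESeq2 called 1 member and limma-voom 0. The member median was -0.17, against -0.01 over all genes, and 3 members had groups that did not overlap, Malat1, Rian and Snhg12, where 19.2% of all genes did not. Gas5 (0.25 ± 0.21, 95% interval -0.21 to 0.71) and Snhg1 (0.41 ± 0.20, -0.02 to 0.84) overlapped with Normal. Neat1 (-0.20 ± 0.17), Rian (-0.27 ± 0.26) and Meg3 (-0.14 ± 0.24) had intervals that include 0, and H19 gave -0.76 ± 0.30 (-1.40 to -0.12, adjusted p = 0.303; -0.34 without Normal replicate 3). A missed threshold does not show that RP and Normal muscle had the same level.

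The genes with profiles most like the other members were also read over the 9 libraries, where the 3 groups set most of each correlation. For Gas5 they were Psma4, Odf2 and Tigd2 (r = 0.997 for each), and for Snhg1 Anxa9, Psma2 and Aamp (0.997, 0.996 and 0.996); Psma4 and Psma2 encode proteasome core subunits. Psma4 averaged 192 CPM in RP, 687 in Cisplatin and 172 in Normal. For Snhg12 they were Sox4, a transcription factor, Ppm1g and Map1lc3b, the autophagy protein LC3B (0.996, 0.995 and 0.995). Malat1 was most like Ap3b1, Ppme1 and Baz1b (0.985, 0.981 and 0.980), Neat1 like Flt3l, Pth1r and Fam69b (0.980, 0.967 and 0.965), and Rian like Sypl2, Cyb5r1 and Smtn (0.995, 0.995 and 0.993). Sypl2, a protein of the muscle triad membrane, averaged 237 CPM in RP, 10.5 in Cisplatin and 320 in Normal. Meg3 had no gene so close, with Txndc12, Gabpb2 and Dkk2 at 0.892, 0.888 and 0.885. Between members, Rian and Snhg1 gave r = -0.991, and Meg3 and Rian, neighbours in 1 domain, gave 0.487.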

How the data were processed

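For each of the 9 libraries the authors deposited raw counts per gene symbol (23282 rows). Per the labels' protocols, Trizol RNA went into a Lexogen QuantSeq kit, which reads 3′ ends. Bowtie2, edgeR and mm10 are named per the submitters' processing notes. Their versions, the counting program and its strand setting, and the annotation: not given in the sources used here.

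Counts of rows with 1 symbol in common were added (79 rows, 35 symbols). The quasi-likelihood test of edgeR 4.0.16 (R 4.3.3; glmQLFit, glmQLFTest) took the deposited counts of all libraries, after filterByExpr, which left 12859 genes, and with TMM factors; p-values of each of 3 comparisons were adjusted over all genes by Benjamini-Hochberg. SEs are the log2 fold change over the square root of F. The procedure was tested on simulated data. Few counts give imprecise values, and PCR copies are not marked by molecular identifiers. No 2 libraries of a group were copies (chi-square over degrees of freedom 11.3 to 28.9).

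The members and gene lists were chosen with earlier results of these data known. Named genes are the members, up to 3 called genes of each list by smallest p in each of the first 2 comparisons, and the 3 genes of highest Pearson r of log2(CPM + 1) per member over the 9 libraries, among genes averaging at least 5 CPM and leaving out unnamed gene models; neighbours and markers may also be named. Snhg11, Snhg14, Dkc1, Srsf1, Nr3c1, Tsc22d3, Sgk1, Fkbp5, Zbtb16, Klf15 and Klf9 were added after their values were seen. A gene that the rule also names is not reported here.

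Alternatives were RLE scaling, library size only, no filter, a filter of 5 CPM in at least 3 libraries, limma-voom (limma 3.58.1), DESeq2 1.42.0, the compared groups alone, a replicate block, Rn45s left out, and each library left out in turn. Figures used matplotlib 3.10.9.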

Additional observations from a re-analysis of the deposited data

How the results depend on the processing

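The calls and directions of the 8 members in the comparisons of Cisplatin with Normal and of RP with Cisplatin held under 18 alternatives, 9 settings and 9 libraries left out in turn, with 2 exceptions. Without Normal replicate 3, H19 in Cisplatin against Normal was -0.65 (adjusted p = 0.0589; -1.41 to -0.65 over the 18) and Meg3 became a called fall, -0.68 (adjusted p = 0.0259; 0.0259 to 0.51 over the 18). In RP against Normal, Snhg12 passed the threshold with no filter on low counts (adjusted p = 0.0106), with DESeq2 (0.0211) and without RP replicate 2 (1.36, adjusted p = 0.03), but was 0.70 (adjusted p = 0.452) without RP replicate 1. H19 passed it as a fall without Normal replicate 2 (-1.10, adjusted p = 0.0157), but was -0.34 (adjusted p = 0.703) without Normal replicate 3. Members called there were thus 1 with no filter and 1 with DESeq2, both risen, and 0 to 1 when a library was left out, in both directions. Genes called in RP against Normal numbered 65, 293 with no filter, 222 with DESeq2 and 22 to 116 when a library was left out. Meg3 in RP against Normal was 0.13 without Normal replicate 1 and 0.03 without RP replicate 3, with -0.39 the lowest value when a library was left out. With library size as the only scaling, the median log2 fold change of all genes in RP against Cisplatin was 0.21, against 0.07 with TMM; under it Rian overlapped between RP and Normal, Snhg1 did not, and H19 did not overlap between RP and Cisplatin. For the replicate block, deviations from the group means correlated at -0.15 to 0.18 between same-numbered libraries of different groups. Differently numbered libraries were not compared, so whether the numbers mark a pairing was not decided. With the block, 6988, 6292 and 61 genes and 7, 6 and 0 members were called in the 3 comparisons. Rian in Cisplatin (37 counts) and the snoRNA rows are limited by depth.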

Other observations

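Other long noncoding RNAs showed smaller or sparser changes than Gas5, Snhg1, Snhg12 and Rian. Of 14 tested from a list of 28, 4 rose and 2 fell in Cisplatin against Normal (median 0.47, against -0.08 over all genes), and 1 rose and 4 fell in RP against Cisplatin (median -0.13, against 0.07). 2900097C17Rik averaged 117 ± 19.1 CPM in RP, 191 ± 19.9 in Cisplatin and 112 ± 5.01 in Normal (SD, n = 3 each), a rise of 0.77 ± 0.14 in Cisplatin against Normal (edgeR adjusted p = 0.000393). Xist, the RNA that coats the inactive X chromosome, averaged 101 ± 18.8 CPM in RP, 138 ± 9.87 in Cisplatin and 101 ± 13.9 in Normal, and fell by 0.46 ± 0.15 in RP against Cisplatin (adjusted p = 0.0243). Miat, a nuclear RNA first described in myocardial infarction, had 22 counts over the RP libraries, 0 over Cisplatin and 36 over Normal. Against a floor of 3 counts over the Cisplatin group, its Cisplatin level was at least 13-fold lower than in Normal, and RP was at least 6.78-fold higher than Cisplatin. Dleu2, the host RNA of miR-15a and miR-16-1, fell by 1.15 ± 0.30 in Cisplatin against Normal (adjusted p = 0.00548).

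Gas5 is known from human cells to bind the glucocorticoid receptor, and the receptor and 10 of its responsive genes were read beside it. Of these 11, 7 rose and 2 fell in Cisplatin against Normal (median 1.26), and 2 rose and 6 fell in RP against Cisplatin (median -0.40). Those that fell in Cisplatin were the receptor gene Nr3c1 (-0.57 ± 0.12, edgeR adjusted p = 0.00141) and Dusp1 (-1.76 ± 0.22, adjusted p = 2.04e-05). Tsc22d3 and Sgk1 were not called in either comparison. Among the risers in Cisplatin against Normal were Fkbp5 (2.21 ± 0.33, edgeR adjusted p = 8.1e-05) and Zbtb16 (1.41 ± 0.24, adjusted p = 0.00026). Klf15 (1.26 ± 0.22, adjusted p = 0.000308) and Klf9 (0.525 ± 0.149, adjusted p = 0.00899) rose as well. Nr3c1, Tsc22d3, Sgk1, Fkbp5, Zbtb16, Klf15 and Klf9 were named after their values were seen. The metallothionein Mt2 averaged 239 ± 149 CPM in RP, 8171 ± 1113 in Cisplatin and 59.8 ± 16.4 in Normal; metals induce it too. The clock gene Per1 averaged 53.04 ± 7.34 CPM in RP, 69.7 ± 4.74 in Cisplatin and 27.3 ± 4.47 in Normal. These 2 rose in RP against Normal, by 2.002 ± 0.40 and 0.96 ± 0.16 (adjusted p = 0.0425 and 0.0153), where Gas5 was not called. Whether Gas5 bears on these genes was not tested.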
